A study of Mus musculus with 10 samples.

Results

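The Sertoli-gated barcodes of the Smarca5 knockout testis are droplet barcodes chosen from measured counts by 4 genes of the Sertoli cell, Cst9, Cst12, Wfdc10 and Aard. Barcodes were kept from 1000 UMIs (counted RNA molecules) and 500 genes upward, with a mitochondrial share of up to 20%. A kept barcode was a member when the summed UMIs of the 4 genes reached 4, when Insl3 and Cyp17a1 of Leydig cells summed to at most 1, and when Prm1, Prm2, Tnp1 and Tnp2, the protamine and transition protein genes of spermatids, stayed under 8% of its UMIs. The gate found 1105 members among 23460 kept barcodes, 398 of 8710 in replicate 1 (4.57%, exact Clopper-Pearson 95% interval 4.14 to 5.03) and 707 of 14750 in replicate 2 (4.79%, 4.45 to 5.15). Both samples are whole testis, and their genotype, cKO for short, is Smarca5 fl/delta; Ddx4-Cre+. Cre is driven there by the germ cell promoter Ddx4, so the Sertoli cell is not its target cell, and the delta allele is shared by every member. The labels do not say that the replicates are separate animals, so p-values measure only the spread between these samples. No wild-type single-cell sample was analysed here, and nothing below compares genotypes. Chromatin accessibility peaks of 8 ATAC-seq libraries, 2 each of wild-type C57BL6 and cKO cells sorted as cKIT+ or on 4C DNA content, serve below only for gene starts.

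Sertoli cells are the somatic nurse cells of the seminiferous tubule. They enclose the germ cells, form the blood-testis barrier with their junctions, respond to follicle-stimulating hormone and testosterone, feed germ cells with lactate and engulf dying germ cells and the cytoplasm that spermatids shed. Because each cell wraps many spermatids, spermatid RNA in a Sertoli barcode can be RNA of attached or engulfed germ cells or free RNA of the suspension, and counts per barcode do not tell these apart.

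The promoters of 3 gate genes, Cst9, Cst12 and Wfdc10, are shown because their transcripts define the members, and that of Defb36, a beta-defensin gene, because it is among the named genes not used for the gate. The promoter of Aard is not shown. These 4 windows lie on chromosome 2 of GRCm38.p6, each window running from 250 bases before to 50 after the RefSeq gene start, 5′ to 3′. Capitals mark a GATA factor motif in Wfdc10 and 2 steroid receptor motifs in Defb36, all on the reverse strand.
Cst9, chr2:148834897-148835196, + strand: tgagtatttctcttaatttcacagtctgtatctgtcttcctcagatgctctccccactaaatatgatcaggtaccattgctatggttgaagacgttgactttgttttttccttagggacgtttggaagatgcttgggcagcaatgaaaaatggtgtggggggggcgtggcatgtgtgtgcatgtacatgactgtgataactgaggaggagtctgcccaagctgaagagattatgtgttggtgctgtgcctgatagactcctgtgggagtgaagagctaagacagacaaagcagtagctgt
Cst12, chr2:148789115-148789414, + strand: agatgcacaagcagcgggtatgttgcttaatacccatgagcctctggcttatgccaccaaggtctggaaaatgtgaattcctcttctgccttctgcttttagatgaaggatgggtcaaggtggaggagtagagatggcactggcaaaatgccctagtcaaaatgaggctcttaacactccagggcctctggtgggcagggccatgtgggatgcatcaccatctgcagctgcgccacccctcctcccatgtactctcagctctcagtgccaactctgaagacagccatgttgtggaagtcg
Wfdc10, chr2:164655796-164656095, + strand: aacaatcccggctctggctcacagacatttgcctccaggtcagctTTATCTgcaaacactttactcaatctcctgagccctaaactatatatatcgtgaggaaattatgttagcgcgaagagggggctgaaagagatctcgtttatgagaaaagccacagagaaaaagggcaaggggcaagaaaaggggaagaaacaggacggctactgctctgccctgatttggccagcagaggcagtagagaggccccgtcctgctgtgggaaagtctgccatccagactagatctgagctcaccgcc
Defb36, chr2:152604077-152604376, + strand: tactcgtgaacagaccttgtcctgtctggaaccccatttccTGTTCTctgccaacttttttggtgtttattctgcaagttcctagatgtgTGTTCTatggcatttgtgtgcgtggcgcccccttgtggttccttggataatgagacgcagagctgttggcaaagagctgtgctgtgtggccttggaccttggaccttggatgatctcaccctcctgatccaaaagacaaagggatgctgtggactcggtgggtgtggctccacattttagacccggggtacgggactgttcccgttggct
The windows of Cst9 and Cst12 held none of the motifs searched on both strands. The motif of the zinc finger factors GATA1 and GATA4 was searched as AGATAA. Of 453 windows of genes that rose in the members, 5.08% held it, against 7.05% of the windows of all genes tested and 11.2% of 32851 promoters. The core of the steroid receptor element was searched as AGAACA. It was in 12.6% of windows of genes that rose, against 14.2% and 19.0%. The motif of SOX factors, searched as ACAATGG, was in 3.09%, against 2.88% and 3.66%. The motif of the nuclear receptor NR5A1, searched as AAGGTCA, was in 2.87%, against 3.65% and 4.72%. The share was below that of the tested genes for every motif except that of SOX factors, with no test of these differences.

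In the sorted cells the Cst12 promoter overlapped an authors' peak in 3 of 4 cKIT+ libraries, with a fold enrichment of 3.19 in wild-type replicate 2, 3.64 in cKO replicate 1 and 4.29 in cKO replicate 2, and in none of the 4C libraries. The Cst9 promoter overlapped a peak in 1 of the 8, cKO cKIT+ replicate 2, at 3.89. Wfdc10 and Gatm had a peak in all 8 libraries, and Defb36 in all but wild-type cKIT+ replicate 1. That library gave the fewest genes with a promoter peak, 41.4% of 27025, against 46.6% to 53.1% in the others. No Sertoli cells were sorted for ATAC-seq, so these peaks describe cells sorted as cKIT+ or on 4C DNA content. Of 12 Leydig gene promoters, 3 and 10 had a peak in wild-type cKIT+ replicates 1 and 2, and 9 and 10 in cKO. In the 4C libraries, in that order, 2, 2, 2 and 3 had one. For 11 macrophage gene promoters these counts were 0, 10, 6 and 2, and 2, 2, 2 and 1. Whether somatic cells were part of these preparations was not tested. The enrichments are the authors' own values over each library's background.

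The 4 gate genes chose the members and are given as a description. Cst9 and Cst12 encode cystatins, Wfdc10 a secreted four-disulfide-core protein, and Aard a small alanine- and arginine-rich protein. Counts summed over members and scaled to CPM, so that each library has the same total, gave Cst9 at 662 and 1851 CPM in replicates 1 and 2, Cst12 at 502 and 1160, Wfdc10 at 142 and 282, and Aard at 587 and 1263. All 4 were higher in replicate 2. They were also present at 191, 153, 41.7 and 191 CPM in 15453 low-count barcodes of replicate 1 with 10 to 100 UMIs. These were taken to stand for free RNA, and whether they hold no cell was not tested.

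The label held for part of the members. Sertoli identity was checked with 32 genes that the gate did not use, among them the transcription factors Sox9, Wt1, Gata1 and Dmrt1, the hormone receptor Fshr and the secreted clusterin Clu. In all members these genes made up 0.285% and 0.785% of UMIs, against 0.435% and 0.352% in the Leydig gate described below, which was above the members in replicate 1. Members were then described by the share of their UMIs that came from the 4 gate genes, in ranges chosen after the data were seen. In the 43 and 170 members with 128 or more gate-gene UMIs per 10000, called marker-richest here, the identity genes reached 2.75% and 3.56%. In the 103 and 137 members under 8 per 10000 they were at 0.04997% and 0.0530%. That was lower than in all other kept barcodes (0.0670% and 0.0860%), which include the Leydig gate, and lower than in the low-count barcodes (0.101%). The median per barcode was 0.0496% and 0.0505% in these members and 0.0168% and 0.0170% in the other kept barcodes, so that order turned with the measure. For these members, 25.9% and 19.4% of the total, the summed list does not carry the label. The list shares genes with Leydig cells, so its sum is not a measure of Sertoli genes alone.

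The ranges in between were graded. With 8 to 32 gate-gene UMIs per 10000 the identity genes stood at 0.229% and 0.324% of UMIs in 145 and 198 members, below the Leydig gate in both replicates. With 32 to 128 they stood at 0.945% and 1.24% in 107 and 202 members. Identity genes thus increased with the gate genes over every range in both replicates, although gate and identity genes share the library and depth. Depth was highest in the poorest range, where 4 UMIs of the gate genes suffice for membership. The median was 13313 and 14074 UMIs under 8 per 10000, 4202 and 3873.5 at 8 to 32, 1529 and 1969.5 at 32 to 128, and 1714 and 3326 in the marker-richest members, which were deeper than the range before them. All members had medians of 4048 and 3942, and all kept barcodes 3515 and 4369.5.

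**Figure D1:**
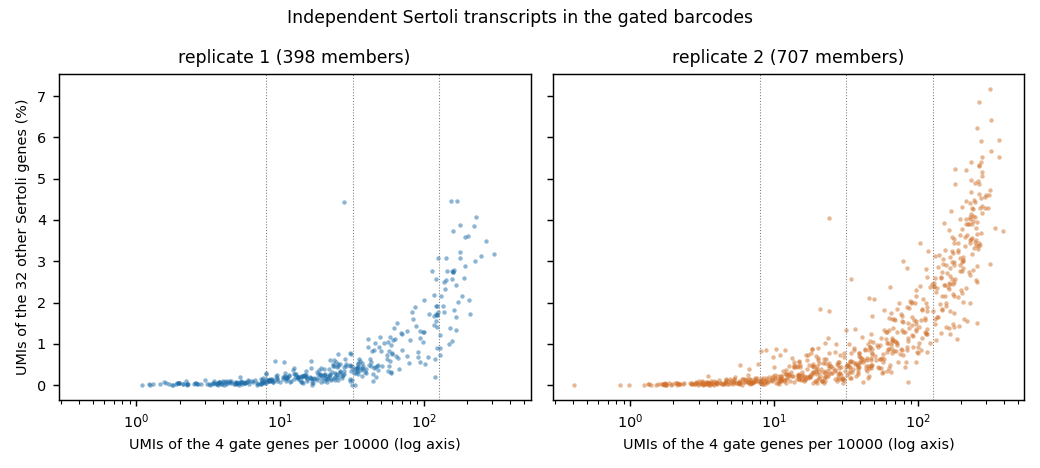
Each point is 1 member; the x axis gives UMIs of the 4 gate genes per 10000 (log axis), the y axis the percent of UMIs from the 32 independent Sertoli genes, and dotted lines mark 8, 32 and 128 per 10000. Members left of the first line lie near 0 (0.04997% and 0.0530% over all their UMIs), and those right of the last reach 2.75% and 3.56%.

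Detection increased over the same ranges at equal depth. With every barcode thinned to 1000 UMIs, which left out no member, 45.2% of members in replicate 1 (40.3 to 50.3) and 62.4% in replicate 2 (58.7 to 66.0) kept UMIs of at least 3 identity genes. The shares were 4.85% and 5.11% under 8 per 10000, 27.6% and 44.9% at 8 to 32, 86.0% and 90.1% at 32 to 128, and 100% in both replicates among the marker-richest. Macrophage-gated barcodes gave 6.06% and 8.26%, and a random 1000 of the other kept barcodes 11.3% and 13.5%. Members under 8 per 10000 did not exceed these. The list holds Ctsl, which macrophages also express, with a UMI in 39.4% and 34.4% of their thinned barcodes, so these are no pure negative control. Leydig-gated barcodes gave 68.4% and 65.5%, since Clu, Defb19 and Inha, among others in the list, are also abundant there. They are part of the other kept barcodes too. Among list genes rare in the Leydig gate, Wt1, Rhox8 and Tsx were detected more often under 8 per 10000 than in other kept barcodes in both replicates. Wt1 was in 1.94% and 3.65% (2 and 5 members), against 0.2% and 0.4%. Sox9, Cldn11 and Rhox5 were not higher in both replicates. Without thinning, 90.7% and 93.6% of members had at least 3 identity genes, including 83.5% and 87.6% of those under 8 per 10000.

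Doublets moved with the ranges. Scrublet called 23.3% and 30.7% of the members under 8 per 10000, and 0% and 1.77% of the marker-richest, against 7.91% and 9.15% of all kept barcodes. Spermatocyte genes fell along the same order, from 2.26% and 1.96% of UMIs under 8 per 10000 to 0.463% and 0.422% in the marker-richest members. Mitochondrial UMIs had a median of 1.34% and 0.614% under 8 per 10000, and 8.66% and 1.19% in the marker-richest, a high value in replicate 1 only. What part doublets, depth or free RNA have in membership was not tested.

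Members near the limits of the gate were close to barcodes just outside. With 4 gate-gene UMIs, 100 and 108 members held 0.0740% and 0.0872% identity UMIs, and 159 and 250 barcodes with 3 gate-gene UMIs, outside the gate, held 0.0534% and 0.0721%. At the protamine limit, 21 and 31 members with 6% to 8% held 0.308% and 0.298%, and 18 and 25 barcodes with 8% to 10%, outside, held 0.359% and 0.375%. The Leydig limit removed 57 and 172 barcodes that had 4 or more gate-gene UMIs, and the protamine limit 94 and 117. The samples shared 39 kept barcodes and no barcode was a member in both.

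Genes not used by any gate were compared between the summed counts of the members and the mean of 3 other somatic gates, Leydig (871 and 1571 barcodes), macrophage (132 and 218) and stromal (39 and 94), within each sample. Of 14587 genes, 441 (3.02%) were higher and 625 (4.28%) were lower in the members by edgeR's quasi-likelihood test with the sample as a block (Benjamini-Hochberg adjusted p under 0.05). The members contain the marker-poor barcodes, so levels in the marker-richest members are given beside the sums, with no test. Of the 441 higher genes, 403 (91.4%) had a higher CPM in the marker-richest members than in those under 8 per 10000 in both replicates, against 30.5% of all tested genes, and 28 (6.35%) had a lower one in both. The 441 genes were called on sums that include the marker-richest members, so these shares describe where the counts lie and are no independent support.

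Tsx, a testis-specific X-linked gene, was at 172 and 397 CPM in the members and at 4.01 to 22.7 in the other gates. Its log2 fold change was 5.11 ± 0.36 (SE, 2 samples, edgeR adjusted p = 2.4e-08), and the marker-richest members held 1434 and 1659 CPM. Defb36, a beta-defensin, was at 121 and 293 CPM against 3.23 to 10.1 in the other gates, a log2 fold change of 4.97 ± 0.33 (edgeR adjusted p = 1.6e-08). Gatm, which makes the creatine precursor guanidinoacetate, was at 223 and 313 CPM against 2.63 to 45.5, a log2 fold change of 4.59 ± 0.33 (edgeR adjusted p = 3.1e-08). For these genes every member sum lay above every other somatic sum. Within a sample that order was a condition for naming a gene, given below, so it is no support for them.

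Named genes were the 20 of largest fold change among higher genes at 100 CPM or more in both member sums. Their member CPM also had to exceed that of every other somatic gate in the same sample. The further named genes fell into 2 kinds. The first were concentrated where the gate genes were. Etd, an X-linked testis gene (log2 fold change 4.88), Basp1, a membrane-associated signalling protein (3.96), the glutathione transferase Gstm6 (3.75), the X-linked Bex4 (3.28), the actin regulator Marcksl1 (1.98) and Nudc, a dynein-linked protein (1.51), all rose in the members and all were higher in the marker-richest than in the marker-poorest members in both replicates. Ctsl, the lysosomal protease cathepsin L, was at 583 and 1523 CPM in members and at 6109 and 7184 in the marker-richest (log2 fold change 2.03 ± 0.30, edgeR adjusted p = 0.00014). Sin3b, a scaffold of histone deacetylase complexes, was at 617 and 1557, and at 3657 and 5910 in the marker-richest (1.72 ± 0.23, edgeR adjusted p = 6.1e-05).

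The second kind was not concentrated there. Tex101, a germ cell surface protein needed for sperm migration, was at 548 and 521 CPM in members but at 52.0 and 255 in the marker-richest. Gml was at 155 and 114 CPM against 10.4 and 79.0, and Lypd10 at 142 and 132 against 0 and 33.7, where 0 UMIs allow up to 31.2 CPM. All passed the test as higher (log2 fold changes of 1.18, 1.58 and 1.24), and all were lower in the marker-richest than in the marker-poorest members in both replicates. Of the 20 named genes, 16 were higher in the marker-richest, these 3 were lower, and 1, Hmgb2, a chromatin protein of germ cells, was mixed at 249 and 389 CPM against 476 and 328. Stmn1, Cdk1, Fkbp6, Cadm1 and Grip1, which are among the 16, rose in the members by 1.20, 1.43, 1.44, 1.18 and 2.18.

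**Figure D2:**
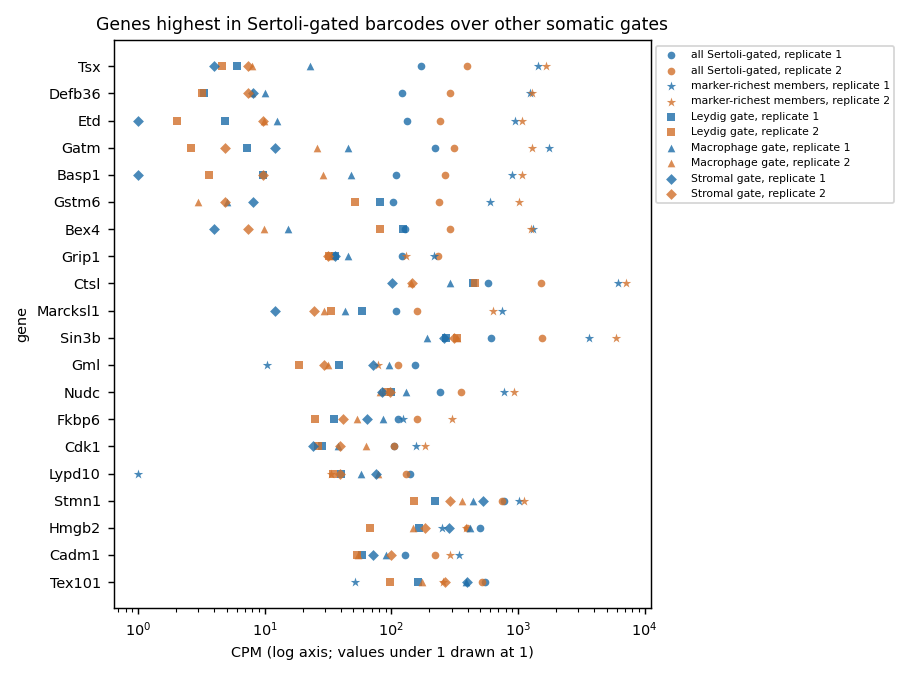
Each row is a named gene and the x axis gives CPM (log axis, values under 1 drawn at 1) in all Sertoli-gated barcodes (circles), marker-richest members (stars) and the other gates, in replicate 1 (blue) and replicate 2 (orange). Stars stand right of circles for Tsx (1434 and 1659 against 172 and 397) and left of them for Tex101 (52.0 and 255 against 548 and 521).

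Of the identity list, 29 of 32 genes were tested, 23 were higher and none was lower (0 at an unadjusted p under 0.05 and 0 with DESeq2), with a median log2 fold change of 3.75 against 0.02 over all genes tested. For this and every list below, the shares over all genes tested were 3.02% higher and 4.28% lower. Sox9, which directs Sertoli fate, was at 18.5 and 31.7 CPM against at most 5.05 in the other gates (log2 fold change 6.54 ± 0.73, edgeR adjusted p = 7.6e-06). Wt1 was at 37.0 and 95.4 CPM (5.12 ± 0.65), Rhox8 at 87.5 and 227 (5.02 ± 0.37) and Dmrt1 at 13.6 and 26.1 (2.77 ± 0.53). Several other gates held 0 UMIs of Sox9 and Wt1, so those fold changes depend on the prior count and the levels are the surer measure. The filter on low counts also admits a gene through the member sums alone, and Sox9 is such a gene. Genes admitted in this way could hardly be called lower. The absence of lower genes and the list median are therefore partly set by the filter, also for low genes of the lists below. Gata4, Vim, Nr5a1, Trf and Nxt2 were among those that did not pass, and Amh, Krt18 and Sox8 were too low to test.

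4 identity genes that passed against the mean of the gates had a negative fitted difference from the Leydig gate alone. Clu was at 395 and 1389 CPM in the members and at 898 and 634 in the Leydig gate (log2 fold change −0.34 against Leydig alone), below it in replicate 1 and above it in replicate 2. Defb19 was at 688 and 1739 against 2015 and 1525 (−0.96), Cited1, a transcriptional co-regulator, was at −0.68, and Eppin, a protease inhibitor, at −0.52. In the marker-richest members Clu was at 4883 and 6573 CPM and Defb19 at 6504 and 8084.

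Hormone signalling genes include receptors and secreted products. Of 18 tested of 22, 11 were higher and 1 lower, with a median of 3.07. Inhbb, Fshr, Rhox8, Rhox5, Amhr2, Inha, Drd4 and Eppin are also among the higher identity genes, so these lists are not independent. Cldn11, Dhh and Ctsl, called higher in the junction, signal and engulfment lists below, are identity genes too. Fshr, the receptor of follicle-stimulating hormone, was at 10.9 and 27.9 CPM in the members, and at 0.904 and 0.340 CPM in the Leydig gate (log2 fold change 6.12 ± 0.85 over the 3 gates, edgeR adjusted p = 9.9e-05). The stromal gate held 0 UMIs, which allow up to 12.04 and 7.33 CPM, so the fitted value depends on the prior count. The same holds for Inhbb and Shbg, which had 0 UMIs in the macrophage and stromal gates. Inha and Inhbb, the subunits of inhibin B, were at 98.9 and 410 CPM (3.72) and at 10.2 and 26.5 CPM (7.67). Shbg, the androgen-binding protein, was at 10.6 and 33.3 CPM (8.44), and Rhox5, an androgen-responsive homeobox gene, at 55.5 and 126 CPM (4.70). Esr1, the estrogen receptor alpha, was lower (log2 fold change −3.23). Amh, the hormone of immature Sertoli cells, had 0 CPM in replicate 1, which allows up to 1.13, and 3.01 CPM in replicate 2.

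Junction genes of the blood-testis barrier were 9 higher and 1 lower of 20 tested, of 22, with a median of 1.11. Cldn11, the claudin of the Sertoli tight junction, was at 48.7 and 95.6 CPM against at most 8.03 in the other gates (log2 fold change 5.78 ± 0.55, edgeR adjusted p = 9.0e-07). Cgn, a tight junction adaptor, rose by 5.17, Itga6, an integrin, by 3.80, and Espn, an actin bundler of the ectoplasmic specialization, by 1.90. Nectin2, Tjp1, Cldn3, Jam3 and Cdh2 also rose, by 1.52 to 1.09. Against the Leydig gate alone Nectin2 stood at −0.01. Actn1 was lower (−2.00).

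Signals to germ cells had more lower than higher genes, as had all genes tested (4.28% lower and 3.02% higher). Of 15 tested of 23, 1 was higher and 3 lower, with a median of −0.70 against 0.02 over all genes tested. Dhh, the hedgehog ligand of Sertoli cells, rose by 5.56 (6.42 and 30.1 CPM). Cxcl12, Igf1 and Wnt6 were lower, by values of −4.89, −4.19 and −1.91. Igf1 is also on the list of Leydig genes. The signal list summed to 134 and 204 CPM in the members. It summed to 585 and 490 in the Leydig, 455 and 265 in the macrophage and 305 and 550 in the stromal gate. Kitl, the ligand of KIT on spermatogonia, was at 30.6 and 65.5 CPM in members, 93.7 and 39.7 in the Leydig gate, and 208 and 168 in the marker-richest members, with a log2 fold change of 1.06 ± 0.48 (edgeR adjusted p = 0.25). Gdnf, the ligand that maintains stem spermatogonia, was too low to test, at 0.755 and 2.01 CPM.

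Of the transport and metabolism genes 24 of 25 were tested, 2 were higher and 4 lower, with a median of 0.13. Hk2, a hexokinase, was at 24.5 and 69.1 CPM (log2 fold change 2.07 ± 0.45, edgeR adjusted p = 0.0061). Ldhb, a lactate dehydrogenase, was at 186 and 490 CPM (1.90 ± 0.32, edgeR adjusted p = 0.00061). The Leydig gate held 415 and 411 CPM, above the members in replicate 1 and below them in replicate 2 (−0.75 against Leydig alone). Fabp3, Cp, Abca1 and Glul were lower. Of the retinoid genes 15 of 21 were tested, none rose by edgeR (0 at an unadjusted p under 0.05, 0 with DESeq2) and Dhrs3, Rxra and Aldh1a1 were lower, with a median of 0.10. Aldh1a1 is also on the list of Leydig genes.

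Engulfment and lysosome genes were 4 higher and 7 lower of 32 tested, with a median of −0.40. Tyro3, a receptor for the phosphatidylserine-bridging proteins GAS6 and PROS1, was at 6.42 and 19.5 CPM, and at 0 and 0.170 CPM in the Leydig gate (fitted log2 fold change 7.68 ± 1.04 over the 3 gates, edgeR adjusted p = 0.00010). The macrophage and stromal gates held 0 UMIs, which in replicate 1 allow up to 7.58 and 12.04 CPM, above the members, so only the Leydig comparison is well measured there. Mfge8, a bridging protein, was at 17.7 and 75.5 CPM (1.77), and Elmo1, an engulfment adaptor, at 54.3 and 115 (1.44), but −0.36 against macrophages alone. Mertk, the related receptor, was at 13.2 and 21.3 CPM and in the macrophage gate at 157 and 40.5 (−0.44 ± 0.53, edgeR adjusted p = 0.76). Cd36, Ctsb, Lrp1, Ctsd, Gas6 and Lamp2 were among the lower genes.

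**Figure D3:**
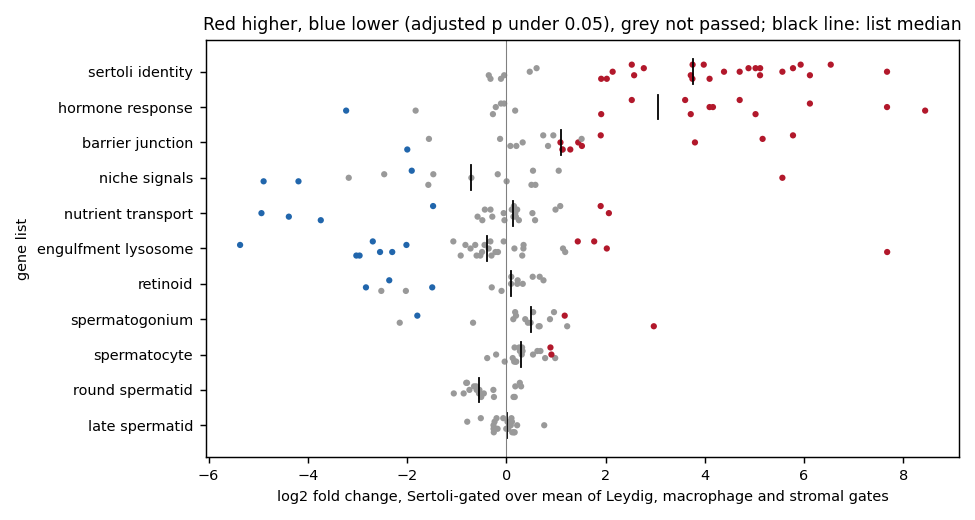
Each point is a tested gene, the x axis its log2 fold change in Sertoli-gated barcodes over the mean of the other somatic gates, red for higher, blue for lower and grey for not passed, with a black line at each list's median. The identity, hormone and junction lists, which share genes, lie to the right (medians 3.75, 3.07 and 1.11) and the spermatid lists near 0 (−0.54 and 0.01).

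Smarca5, the gene targeted in germ cells, was at 67.5 and 62.2 CPM in the members, and 0.29 ± 0.32 above the other gates (edgeR adjusted p = 0.73). The position of the deleted part relative to the 3′ tag is not given in the sources used here, so this level checks neither the allele nor the label. Of 13 genes of ISWI complexes all were tested, none rose by edgeR (2 at an unadjusted p under 0.05, 0 with DESeq2) and 1, Rbbp7, was lower.

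No spermatid gene passed the test between the members and the other somatic gates. Of 19 tested round spermatid genes, with a median of −0.54, edgeR called none, 7 were lower at an unadjusted p under 0.05, and DESeq2 called 1 lower. Of 20 late spermatid genes, with a median of 0.01, edgeR called none, 1 was higher and 1 lower at an unadjusted p under 0.05, and DESeq2 called none. Late spermatid genes made up 2.07% and 1.88% of member UMIs, 1.13% and 1.69% in Leydig, 1.66% and 1.98% in macrophage, 2.46% and 2.02% in stromal gates, and 2.47% in low-count barcodes. Medians per barcode were further apart, at 1.79% and 0.837% in members, 0.189% and 0.154% in Leydig, 0.546% and 0.331% in macrophage, and 1.77% and 0.347% in stromal gates. Sycp1, Sycp3, Uchl1 and Tex101, of spermatocytes and spermatogonia, were higher, and Kit was lower. Uchl1 was in turn highest in the marker-richest members, while Sycp1, Sycp3 and Tex101 were lower there.

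Meig1, Fabp9 and Ropn1l made up 29.7%, 23.9% and 14.2% of the late spermatid list's UMIs in members of replicate 1. In replicate 2 they made up 22.4%, 21.7% and 16.3%. Other kept barcodes under 2% protamine UMIs still held 1.79% and 1.95% of their UMIs in this list. Whether its UMIs stem from spermatids or earlier germ cells was not tested. The list's share in summed UMIs was lower in each richer range. It was 2.24% and 2.52% of UMIs under 8 per 10000, 2.01% and 1.61% at 8 to 32, 1.64% and 1.49% at 32 to 128, and 0.903% and 0.541% in the marker-richest members. In UMIs per barcode the medians were 274 and 359 in the poorest and 12 and 10 in the marker-richest, against 5 and 5 in the Leydig gate and 8 and 5 in macrophages. The median share per barcode was 0.665% and 0.292% in the marker-richest members, above the Leydig gate in both replicates. Against macrophages it was higher in replicate 1 and lower in replicate 2. The low sum of the marker-richest members is thus a low value among sums only, and over the ranges the medians of replicate 2, 2.21%, 0.507%, 1.02% and 0.292%, did not fall in order. Median depth differed too, at 2437 and 4188 UMIs in the Leydig gate and 1429.5 and 1496.5 in macrophages.

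The kind of spermatid RNA is given as a description, since the gate itself uses the protamine and transition protein genes. Protamine and transition protein UMIs per late spermatid UMI were 0.455 and 0.510 in the marker-poorest members, 0.608 and 0.674 at 8 to 32, 0.906 and 0.926 at 32 to 128, and 1.84 and 1.16 in the marker-richest. They were 0.490 and 0.348 in the Leydig gate, 0.635 and 0.323 in macrophages, 0.516 and 0.323 in the stromal gate, 0.810 and 0.919 in other kept barcodes, and 1.07 in the low-count barcodes. The somatic gates cap protamine UMIs and the other kept and low-count barcodes do not, so only the somatic groups compare like with like, and among these the ratio was highest in the marker-richest members. With barcodes of 2% or more protamine UMIs left out, an alternative chosen after seeing the data, the ratio fell to 0.698 and 0.574 in the marker-richest, against 0.223 and 0.119 in Leydig, 0.365 and 0.0975 in macrophages, and 0.213 and 0.147 in stromal barcodes. That limit removed 13 of the 43 and 16 of the 170 marker-richest members.

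Genes of the list that the gate did not use differed as well. Meig1, a meiosis-expressed gene, was 20.4% of the list's UMIs in the marker-richest members of replicate 1 (17.7 to 23.2) and 19.1% in replicate 2 (17.8 to 20.4), against 31.4% and 23.2% in the poorest and 28.0% (27.4 to 28.5) in low-count barcodes. Smcp, of the sperm mitochondrial capsule, was 8.52% (6.75 to 10.6) and 7.30% (6.48 to 8.19) in the marker-richest, against 3.54% and 4.96% in the poorest and 6.55% (6.25 to 6.85) in low-count barcodes. The intervals cover counting error only, and no low-count barcodes are listed in replicate 2. In the alternative without protamine-rich barcodes, Meig1 was 32.1% and 25.4% in the marker-richest, so its lower share rests on the barcodes left out; Smcp was 6.49% and 4.18%, against 1.96% and 3.44% in the poorest under the same limit. The part of attached or engulfed cells, doublets and free RNA in these values was not tested.

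**Figure D4:**
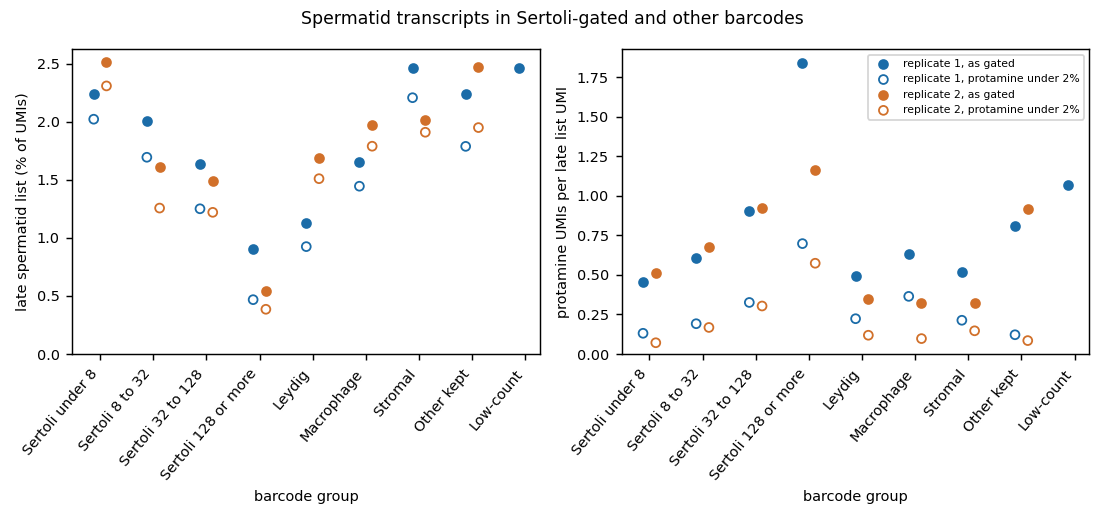
Left, percent of UMIs from the late spermatid list; right, protamine and transition protein UMIs per late spermatid UMI, by barcode group, for replicate 1 (blue) and replicate 2 (orange), with open circles for barcodes under 2% protamine UMIs. All values are sums over a group's barcodes, in which the marker-richest members are at 0.903% and 0.541% (left) and at 1.84 and 1.16 (right).

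Members varied most in the protamine and transition protein genes, in mitochondrial genes and in Ctsl and Malat1. Among 745 genes at 1000 UMIs, the variance over the mean (Fano factor) was 5.69 and 5.40 for Ctsl and 5.46 and 5.12 for Malat1, a nuclear RNA, against medians of 1.19 and 1.25. The other 8 of the 10 highest were Prm1, Prm2, Tnp1 and Tnp2, which the gate caps, and mt-Co1, mt-Co2, mt-Co3 and mt-Atp6. All 10 kept their place at 2000 UMIs in the 274 and 507 members that reached it. Within the marker-richest members the Fano factor of Ctsl dropped to 2.38 and 2.54 and that of Malat1 to 1.43 and 2.49.

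Genes of other cell types were measured in the members. Leydig genes made up 0.0422% and 0.0540% of UMIs, against 2.98% and 3.56% in the Leydig gate, but the gate limits this list. Macrophage genes made up 0.0396% and 0.0421% of UMIs, against 1.63% and 1.57% in the macrophage gate, and 6 of 15 were lower and none higher by edgeR (0 higher at an unadjusted p under 0.05, 0 with DESeq2). The macrophage gate was picked by macrophage markers and is part of this comparison. Higher genes were thus hardly possible, and their absence is no support. The stromal gate was likewise picked by stromal markers. Peritubular and stromal genes made up 0.0340% and 0.0847%, with 4 of 14 lower and 2 higher. They made up 0.0871% and 0.193% in the stromal gate, and 0.207% and 0.135% in the Leydig gate, which was above the stromal gate in replicate 1. In the marker-richest members they made up 0.281% and 0.369%, above the stromal gate in both replicates, and their part in the results for those members was not tested. The higher ones were Myl9, a myosin light chain at 30.9 and 93.2 CPM, and Sparc, a matrix glycoprotein at 213 and 652 CPM. In the marker-richest members Sparc reached 2327 and 3125 CPM, above the Leydig gate at 1118 and 659. The sums over all members stood at −1.50 against Leydig alone for Sparc and at −0.80 against the stromal gate alone for Myl9. Spermatocyte genes made up 1.78% and 1.48% of UMIs in the stromal gate, close to the 1.78% and 1.61% of other kept barcodes. The stromal gate is therefore no pure stromal reference.

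X-linked genes were frequent among those that rose. Of the genes with a known chromosome, 54 of 431 higher genes (12.5%) and 43 of 622 lower genes (6.91%) were X-linked, against 471 of 13865 tested (3.40%). Tsx, Etd, Bex4, Rhox5, Rhox8, Nr0b1, Gata1 and Cited1 are among the higher ones.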

How the data were processed

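Droplet 3′ single-cell RNA was measured in 2 cKO testis suspensions. The authors deposited raw UMI counts per gene and barcode on mm10 from Cell Ranger 7.1.0 (replicate 1, 987771 barcodes listed) and 9.0.1 (replicate 2, 17744 barcodes, at least 500 UMIs each), per the file headers; the submitters' processing notes name Seurat 4.1.0 without its role. The deposited ATAC peaks carry a fold enrichment, a ratio over local background, made with cutadapt, Bowtie2 and MACS2 per the submitters' processing notes; versions are not given in the sources used here.

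The members, lists and tests were chosen with earlier results of these data known. The other somatic gates needed at least 4 UMIs of their own markers and at most 1 of the Sertoli gate genes. Doublets were kept; Scrublet (scanpy 1.11.5) only marked them. Counts were summed per sample and gate (2650020 and 4980451 UMIs in the members), gate and mitochondrial genes were removed, and filterByExpr, TMM and edgeR 4.0.16 quasi-likelihood tests were run in R 4.3.3 with the sample as a block, since gates of 1 sample come from 1 suspension. Deviations of the gates within a sample correlated at −0.05 to 0.48 over 11081 genes. SE is the absolute log2 fold change over the square root of F. On simulated data with 14366 genes, all of 98 genes changed 4-fold and 100 changed 8-fold were recovered, with 7 false calls. The changed genes were drawn from well-counted genes, with a fixed dispersion and no sample effect. The recovery therefore does not cover genes near 0 UMIs in the other gates. Named genes were the 20 of largest positive fold change among genes passing and at 100 CPM or more in both member sums. In each sample their member CPM also had to exceed that of every other somatic gate. Intervals are exact at 95% and cover counting error only. Alternatives were DESeq2 1.42.0, other gate limits, no filter, no block, each gate alone and each replicate alone. Some single genes of the lists are counted but not reported here by name.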

Additional observations from a re-analysis of the deposited data

How the results depend on the processing

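The members numbered 196 and 405 with 8 gate-gene UMIs as the minimum, and 228 and 415 at 3000 UMIs; leaving out a replicate left 398 to 707 of 1105. Genes higher numbered 736 at that marker minimum (555 lower), 697 without a filter on low counts, and 194 against the stromal gate alone; genes lower numbered 1652 against the Leydig gate alone. The split moved to 316 higher and 719 lower with DESeq2, and to 580 and 417 at 3000 UMIs, from 441 and 625. Without the replicate block 396 were higher and 558 lower, and germ cell genes called higher went from 4 to 2. Germ cell genes called lower went from 1 to 2 with DESeq2 and to 4 at the higher marker minimum, a setting added for the lists after seeing the data. The mean late spermatid share went from 1.97% to 1.71% under 2% protamine UMIs, and to 1.88% to 2.07% with 1 replicate left out; for round spermatids the latter gave 0.368% to 0.446%. The cause of these changes was not tested, apart from the fewer barcodes or genes that a setting leaves.

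Against the macrophage gate alone log2 fold changes reversed for Aldh1a1 (1.72), Elmo1 (−0.36), Fdx1 (0.19), Igfbp7 (0.24), Nr2f2 (0.0072), Rbbp7 (0.40), Star (0.44) and Wnt6 (1.21). Against Leydig alone they reversed for Cited1 (−0.68), Clu (−0.34), Defb19 (−0.96), Eppin (−0.52), Laptm5 (0.66), Ldhb (−0.75), Lyz2 (0.45), Nectin2 (−0.0078) and Sparc (−1.50), and against stromal alone for Cd74 (1.24), Lyz2 (1.84) and Myl9 (−0.80). Star also reversed at 3000 UMIs (1.19). All 118 called genes of the lists and of the named set kept their direction without replicate 1 and without replicate 2, where no test was possible because 1 sample leaves no residual degrees of freedom. These genes were called on the same samples, and the named ones had to be highest in each. Their kept direction is therefore no independent support. Calls were lost with the same direction for 47 of the 118 against stromal alone, 30 against macrophage alone, 15 against Leydig alone, 8 each with DESeq2 and without the block, and 25 of 110 at 3000 UMIs. Stromal sums are shallow (249103 and 409243 UMIs), which limits genes of low level.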

Other observations

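Cytoskeleton and cell cycle genes mostly did not pass in the members. Of 16 tested cytoskeleton genes 3 rose, the neuronal-type tubulin Tubb3 at 58.1 and 147 CPM, Map1b at 50.2 and 100.0 CPM, and Tuba1a at 86.4 and 221 CPM, and 1, Actn1, was lower (edgeR, adjusted p under 0.05). Of 14 tested cell cycle genes Cdk1 was higher at 105 and 106 CPM, and Ccnd2 and Ccnd3 were lower. Among dissociation stress genes Hspb1, a small heat shock protein, was at 94.0 and 406 CPM and at 727 and 1751 CPM in the marker-richest members. Fos, Fosb, Ier3, Zfp36, Hspa1a and Hspa1b were lower than in the other gates.

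Hbb-bs, the beta-globin of red blood cells, was called higher at 12.5 and 107 CPM, but was at 0 and 1.46 CPM in the marker-richest members and at 43.1 CPM in the Leydig gate of replicate 1. None of the 3 tested endothelial and 4 tested T cell genes passed in either direction (edgeR, 0 at an unadjusted p under 0.05, 0 with DESeq2).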
